A study of Mus musculus with 16 samples.

Results

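The 10 genes described here encode antioxidant enzymes, namely Gpx1, Gpx3, Gpx4, Sod1, Sod2, Sod3, Cat, Hmox1, Nqo1 and Txnrd1. They were selected by gene symbol from the 49568 symbols of the deposited count table, and all 10 were present and passed the expression filter in every comparison. Gpx3 was chosen for how its counts in these libraries differed with strain and injury, so its values are given as a description and carry no test. The other 9 members were tested with all other genes. RNA-seq had been performed on 16 libraries of flexor tendon, 4 in each of 4 groups: uninjured tendon and tendon at 7 days post-injury (dpi) from C57BL/6J (C57) mice, and uninjured tendon and tendon at 7 dpi from MRL/MpJ (MRL) mice. MRL/MpJ mice are known for healing several tissues with little scar, and C57BL/6J mice are a standard comparison strain. The mice were males of 9 to 11 weeks, and the deep digital flexor tendon of a hind paw digit had been cut through part of its width. The tendon was taken with its sheath and surrounding tissue, so a library is a mixture of cell types.

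Superoxide, which leaks from mitochondria and is made on purpose by phagocytes, is converted to hydrogen peroxide by the superoxide dismutases Sod1 in the cytosol, Sod2 in mitochondria and Sod3 outside the cell. The peroxide is removed by catalase and by the glutathione peroxidases, of which Gpx1 is cytosolic and mitochondrial, Gpx4 reduces lipid peroxides within membranes, and Gpx3 is secreted. Hmox1 degrades haem, Nqo1 reduces quinones and Txnrd1 keeps thioredoxin reduced, and all 3 are classical targets of the transcription factor NRF2 (Nfe2l2), which binds the antioxidant response element. Wounding brings phagocytes, and haem from blood, into a tendon.

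Libraries held between 12552424 and 23741648 counts, and the injured MRL libraries, with 18524170 to 23741648, were the deepest. Levels are given as CPM, counts scaled to a common TMM-adjusted library size, TMM being edgeR's trimmed-mean scaling, and 3 counts corresponded to between 0.124 and 0.239 CPM. All 10 members were far above that floor in every library. Markers of tendon fibroblasts made up 1.91% to 7.48% of counts, with at most 1 of the 10 genes at 0 in a library.

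The strain label of 2 libraries did not match their counts. Among the 8 injured libraries, 33 genes had at least 50 counts in each MRL library and at most 3 in each C57 library, and 6 genes showed the opposite pattern. The library labelled C57 uninjured replicate 4 behaved otherwise, since 32 of the 33 MRL genes had over 3 counts there, compared with 0 to 4 in the other uninjured C57 libraries, and 1 of the 6 C57 genes did. In the library labelled MRL uninjured replicate 4, 2 of the 33 MRL genes and 6 of the 6 C57 genes had over 3 counts. In the other uninjured MRL libraries 32 to 33 of the MRL genes and 0 to 2 of the C57 genes did, with 2 in replicate 3. Each of the 2 libraries labelled replicate 4 thus carried the pattern of the other strain. Because these genes were picked on the injured libraries, they check the uninjured labels and not the injured ones. Reads of C57 and MRL were all mapped to GRCm38.p5, the C57BL/6J reference. The 33 MRL genes include pseudogene symbols such as Rplp0-ps1 and Rpl15-ps2, and the part of read mapping in these patterns was not tested. Both libraries labelled replicate 4 are kept under their labels here, and results that rest on them are mostly given with and without them. Of the counts of the library labelled C57 uninjured replicate 4, 7.30% fell on 12 epidermal markers, against at most 0.0892% elsewhere. Among injured C57 libraries, BI-181 had 7.53% and BI-183 0.240% of counts on 12 skeletal muscle markers, against at most 0.00323% in all others.

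**Figure D1:**
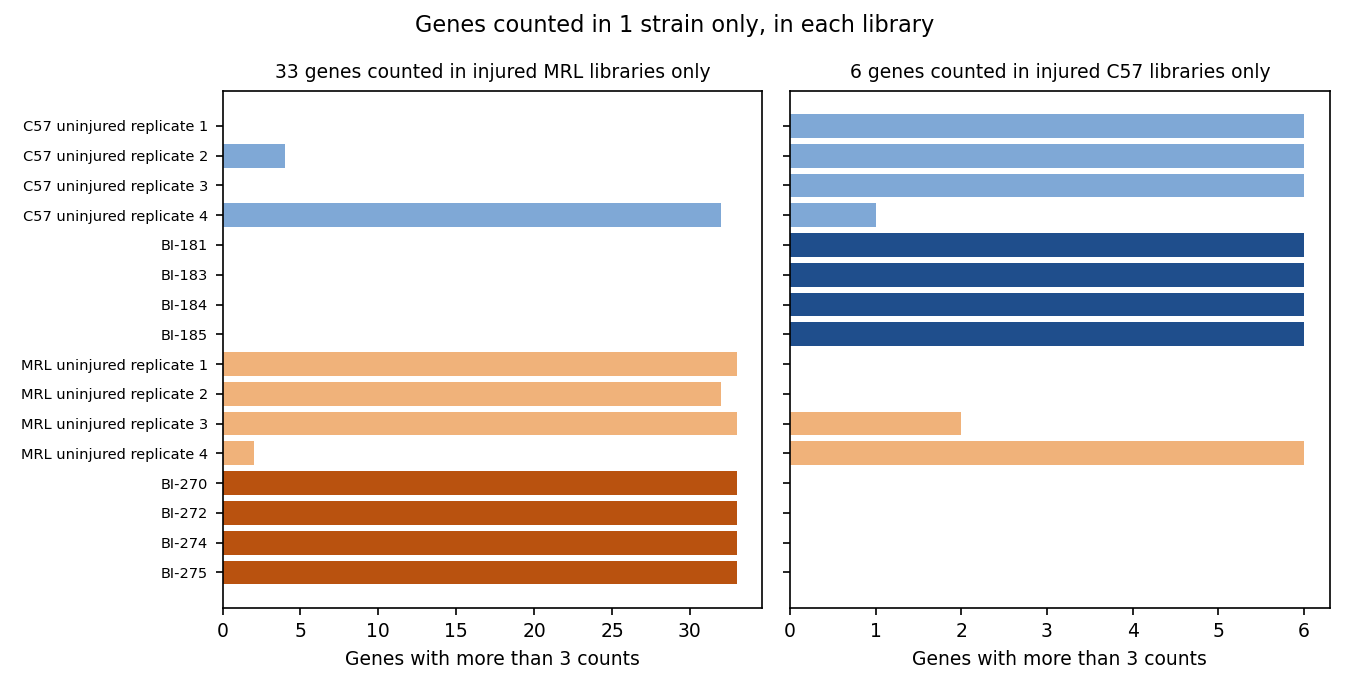
Number of genes with more than 3 counts in each library, among 33 genes counted in injured MRL libraries but not in injured C57 libraries (left) and 6 genes with the opposite pattern (right). Bars are coloured by labelled group; C57 uninjured replicate 4 reaches 32 of the 33 MRL genes and MRL uninjured replicate 4 reaches 6 of the 6 C57 genes.

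Gpx3 was the member with the widest range. It lies on chromosome 11 from 54902453 to 54910377 (plus strand, GRCm38, GENCODE M21) as ENSMUSG00000018339.11 and overlaps no other annotated gene. In uninjured tendons labelled C57 it had 3372, 3571 and 6138 CPM in replicates 1 to 3 and 75.4 CPM in replicate 4. In uninjured tendons labelled MRL it had 94.3, 75.4 and 99.1 CPM in replicates 1 to 3 and 5194 CPM in replicate 4. The groups as labelled therefore overlapped, through replicate 4 of each strain. The other 3 libraries of each strain lay far apart, with a mean of 4360.1 ± 1542 CPM (SD, n = 3) in C57 and 89.6 ± 12.6 CPM (SD, n = 3) in MRL, a ratio of 48.7. With all 4 libraries the ratio of the means was 2.41.

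In injured tendons the strains also lay apart. Gpx3 had 1119.8, 975, 1800.4 and 1881 CPM in the C57 libraries, in the order BI-181, BI-183, then BI-184 and BI-185. It had 155, 279, 149.9 and 214 CPM in the MRL libraries, in the order BI-270, BI-272, then BI-274 and BI-275. The lowest C57 library was above the highest MRL library, and the means of 1444 ± 463 and 199.6 ± 60.4 CPM (SD, n = 4 each) differed 7.24-fold. The strains were thus closer in injured than in uninjured tendon when replicate 4 of both was left out.

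The direction of the difference in Gpx3 between injured and uninjured tendon depended on replicate 4 in MRL. In C57 the log2 fold change was -1.19 with all libraries and -1.60 with replicate 4 of the uninjured C57 group dropped, and every injured library was then below every uninjured one. In MRL it was -2.79 with all libraries and 1.18 without the library labelled MRL uninjured replicate 4, and without it every injured library was above every uninjured one. The strain-by-injury term, the MRL change minus the C57 change on the log2 scale, was -1.64 with 16 libraries and 2.71 for Gpx3 with 14. Because strain and injury chose this gene, these values carry no p-value. By the size of the log2 difference between the strains, Gpx3 ranked 412th of 9268 genes with a mean of at least 10 CPM in uninjured tendon with all libraries, 26th of 9270 without both replicate 4, and 141st of 9285 in injured tendon. These contrasts chose the gene, so the ranks are a description.

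**Figure D2:**
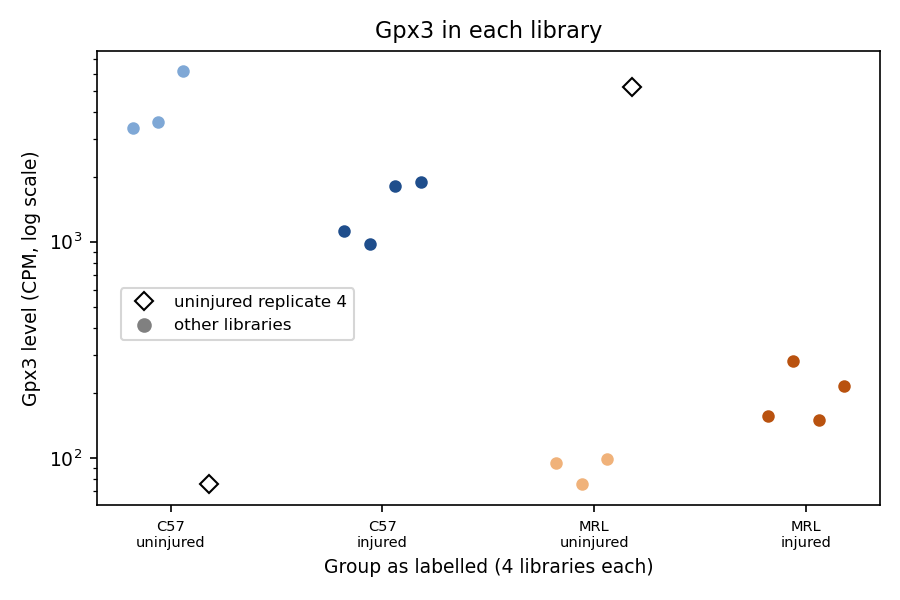
Gpx3 level in CPM (log axis) in each of the 16 libraries, by labelled group with 4 libraries each. Open diamonds are the uninjured libraries labelled replicate 4, at 75.4 CPM in C57 and 5194 CPM in MRL, each lying among the libraries of the other strain.

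The bases just upstream of the Gpx3 transcript are shown because this gene had the widest range among the members. The stretch ends where an annotated first exon begins, 83 bases before the RefSeq start, and lies within an intron of a longer annotated transcript. It is taken from the RefSeq promoter table on GRCm38.p6, chr11:54902604-54902771, plus strand, and is the reference sequence of the C57BL/6J genome.

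Gpx3: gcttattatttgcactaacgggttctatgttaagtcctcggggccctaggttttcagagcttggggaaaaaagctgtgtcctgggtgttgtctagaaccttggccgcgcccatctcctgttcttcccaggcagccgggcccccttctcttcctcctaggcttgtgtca

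Neither strand of this stretch holds the core of the antioxidant response element, TGACNNNGC, in which N is any base, and capitals would have marked it. Of 32851 promoter windows in the RefSeq table, each with 250 bases before and 50 after a transcript start, 12.4% held this core on either strand. The table held 13 windows for 8 of the members (none for Sod3 or Hmox1), and 2 of the 13 held the core. Both are shown with the core in capitals, here as its reverse complement, because they are the members' matches to the element that NRF2 is known to bind. The Sod1 stretch is chr16:90220696-90220724, and its core, from 90220706 to 90220714, ends 48 bases before the RefSeq start. The Txnrd1 stretch is chr10:82859104-82859132, and its core, from 82859114 to 82859122, ends 84 bases before 1 of 3 RefSeq starts.

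Sod1: gccaaggtggGCGTGGTCAgactcaggcc
Txnrd1: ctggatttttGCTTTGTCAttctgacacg

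A match is a description of the letters and does not show binding. The 4 genes next to Gpx3 did not pass the test in any comparison. Between uninjured strains without both replicate 4 libraries, the nearest to the threshold was Anxa6, higher in MRL with a log2 difference of 0.37 (SE, the standard error, 0.098, adjusted p = 0.0614, edgeR). Hint1 differed by -0.38 (SE 0.13, adjusted p = 0.138, edgeR), Tnip1 by -0.62 (SE 0.32, adjusted p = 0.341, edgeR) and Lyrm7 by -0.31 (SE 0.70, adjusted p = 0.882, edgeR). With all 8 libraries the 4 differences lay between -0.50 and 0.45 (lowest adjusted p = 0.704, edgeR).

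The 5 genes most like Gpx3 were named by Pearson's correlation of log2 CPM over the 16 libraries, among 9445 other genes with a mean of at least 10 CPM. They were Pop4 (r = 0.94), Ublcp1 (r = 0.93), Rnps1 (r = 0.92), Rpl26 (r = 0.92) and Osbpl3 (r = 0.92), with r from 0.90 to 0.96 over 14 libraries. All were higher in C57 than in MRL replicates 1 to 3 of uninjured tendon, as Rpl26 was with means of 126 and 17.6 CPM, and all were higher in the MRL than in the C57 library labelled replicate 4. Rpl26 had 35.7 CPM in the library labelled C57 uninjured replicate 4 and 103 CPM in that labelled MRL uninjured replicate 4. The 16 points fall into 2 strains, which these correlations share. Reads of both strains were mapped to the C57BL/6J reference. The part of strain variants, or of reads shared with gene copies, in the Gpx3 and Rpl26 levels was not tested. Ublcp1 and Rpl26 lie on chromosome 11, as Gpx3 does, and Pop4, Rnps1 and Osbpl3 lie on chromosomes 7, 17 and 6.

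Gpx1, on chromosome 9 from 108338903 to 108340343, encodes the cytosolic glutathione peroxidase and was abundant in every library. It had 1964, 1899.8 and 1974 CPM in C57 uninjured replicates 1 to 3 and 2623 CPM in replicate 4, and 1205, 1602, 1888 and 1845 CPM in injured C57 tendons. All 4 injured C57 libraries were thus below all 4 uninjured ones, with means of 1635 and 2115 CPM. The nearest lay close, at 1888 and 1899.8 CPM. In MRL it had 1693, 1962, 1852 and 1858 CPM in uninjured replicates 1 to 4. The injured MRL libraries had 1920.0, 2075, 2085 and 2078 CPM, all above the injured C57 libraries. None of these differences passed the test, with or without replicate 4 (lowest adjusted p = 0.465, edgeR): the log2 fold change after injury was -0.38 in C57 (SE 0.23, adjusted p = 0.465, edgeR) and 0.16 in MRL (SE 0.14, adjusted p = 0.514, edgeR), and MRL exceeded C57 by 0.27 in injured tendon (SE 0.20, adjusted p = 0.482, edgeR).

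Gpx4, on chromosome 10 from 80047166 to 80056439, encodes the lipid peroxide reductase that protects cells from ferroptosis. It ranged from 233 to 344 CPM in 14 of the 16 libraries. The exceptions were the library labelled C57 uninjured replicate 4, with 138 CPM, and BI-181, with 399 CPM, which are the libraries rich in epidermal and muscle markers. In MRL the 4 injured libraries, 233 to 272 CPM, lay below the 4 uninjured ones, 274 to 344 CPM, and the log2 fold change of -0.20 (standard error 0.13) did not pass the test (adjusted p = 0.361, edgeR; 0.418 without replicate 4). In C57 it was 0.18 (SE 0.29, adjusted p = 0.820, edgeR), and -0.017 without replicate 4 (SE 0.21, adjusted p = 0.975, edgeR). Pseudogene copies of Gpx4 are annotated and could share its reads.

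Sod3, on chromosome 5 from 52363791 to 52371418, encodes the superoxide dismutase bound to the extracellular matrix, and was the most abundant dismutase in every library. In C57 uninjured replicates 1 to 3 it had 3157, 2926 and 4168 CPM, and in replicate 4 it had 1389 CPM. In injured C57 tendons it had 1092.5, 1772, 1197 and 1860.1 CPM. Without replicate 4 every injured C57 library was below every uninjured one, whereas with it the groups overlapped.

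In MRL, Sod3 had 3131, 3087, 2520.3 and 3420.1 CPM in uninjured replicates 1 to 4 and 2449, 3423, 3093 and 2435 CPM in injured tendons. The injured MRL libraries spanned the range of the uninjured ones and were all above the injured C57 libraries. Sod3 thus fell in C57 by the test without replicate 4, with a log2 fold change of -1.21 (SE 0.24, adjusted p = 0.0223, edgeR), and with all 8 libraries the value was -0.98 (SE 0.35, adjusted p = 0.238, edgeR). Leaving out a further library in turn gave log2 fold changes from -1.34 to -0.99, and Sod3 passed both criteria in 3 of these 7 fits, not when BI-184 or uninjured replicate 1, 2 or 3 was the further library (highest adjusted p = 0.129, edgeR). In MRL the log2 fold change of Sod3 was -0.09 with all libraries (SE 0.18, adjusted p = 0.787, edgeR) and -0.01 without MRL uninjured replicate 4 (SE 0.19, adjusted p = 0.982, edgeR). The difference between these changes was 0.84 (SE 0.40, adjusted p = 0.410, edgeR) for 16 libraries and 1.1398 (SE 0.32, adjusted p = 0.271, edgeR) for 14, so a strain-dependent change was not shown by edgeR. DESeq2 on the 14 libraries gave 1.13 with an adjusted p of 0.0300 (DESeq2's Wald test).

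In bulk tissue, fewer cells of a type and less RNA per cell cannot be told apart. The summed level of 10 tendon fibroblast markers was 22381 to 43410 CPM in injured C57 tendons and 22323 to 50910 CPM in uninjured ones. Without replicate 4, the lowest value, the uninjured C57 libraries had 45453 to 50910 CPM, all above the injured ones, and 1 of the 10 markers fell and 0 rose by edgeR in that set. In MRL it was 36381 to 80985 CPM in injured and 46792 to 65368 CPM in uninjured tendons (47808 to 65368 CPM without replicate 4). The part of such markers in the Sod3 result was not tested. Without BI-181, the library richest in muscle markers, and without replicate 4, the log2 fold change of Sod3 in C57 was -1.03 (adjusted p = 0.0178, edgeR). BI-183, with 0.240% of counts on muscle markers, stayed in that fit.

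The cytosolic Sod1, on chromosome 16 from 90220754 to 90226329, ranged from 38.0 to 76.0 CPM over the 16 libraries. Its log2 fold change was -0.08 after injury in C57 (SE 0.20, adjusted p = 0.899, edgeR) and -0.048 in MRL (SE 0.21, adjusted p = 0.912, edgeR), and without replicate 4 it was -0.17 and -0.058 (adjusted p = 0.634 and 0.908, edgeR). The mitochondrial Sod2, on chromosome 17 from 13006846 to 13040063, had 48.5, 40.0 and 44.3 CPM in C57 uninjured replicates 1 to 3, 133 CPM in replicate 4, and 142, 65.7, 63.9 and 52.9 CPM in injured C57 tendons. In MRL Sod2 had 51.4, 66.6, 60.2 and 43.2 CPM in uninjured and 59.5, 116, 88.0 and 214 CPM in injured tendons. The injured values of Sod2 were widely spread in both strains, and in each 1 library stood highest, BI-181 in C57 and BI-275 in MRL. The log2 fold change of Sod2 in MRL was 1.12 (SE 0.34, adjusted p = 0.0603, edgeR), which missed the threshold, and 1.02 without replicate 4 (adjusted p = 0.131, edgeR). Sod2 was called in MRL by DESeq2 (1.12, adjusted p = 0.0181) and without BI-270 (1.31, adjusted p = 0.0299, edgeR), not without BI-275 (0.67, adjusted p = 0.0951, edgeR) or by DESeq2 without replicate 4 (1.01, adjusted p = 0.0585). In C57 it was 0.28 with all libraries (SE 0.47, adjusted p = 0.832, edgeR) and 0.87 without replicate 4 (SE 0.33, adjusted p = 0.171, edgeR).

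As a measure within each library, Sod3 made up 96.8%, 97.1%, 97.6% and 89.0% of the summed CPM of the 3 dismutases in C57 uninjured replicates 1 to 4 and 84.6%, 94.3%, 91.2% and 95.2% in injured C57 tendons. It made up 96.8%, 96.0%, 95.7% and 97.3% in uninjured and 96.2%, 95.4%, 95.8% and 89.4% in injured MRL tendons. The libraries with the lowest shares, BI-181, C57 uninjured replicate 4 and BI-275, were those with the highest Sod2. In means, the share was 91.3 ± 4.81% after injury and 95.1 ± 4.11% before it in C57 (SD, n = 4 each, two-sided exact permutation p = 0.257), and 94.2 ± 3.24% and 96.5 ± 0.722% in MRL (SD, n = 4 each, exact permutation p = 0.143). The smallest p that 4 against 4 libraries allow is 0.0286, and over the 4 comparisons of the share the adjusted p-values (Benjamini-Hochberg, exact permutation) ran from 0.495 to 0.886, so none passed with all libraries. Without the uninjured libraries labelled replicate 4, every uninjured C57 share (mean 97.2 ± 0.409%, SD, n = 3) was above every injured one, and the difference of -5.85 percentage points had an exact permutation p of 0.0857 (adjusted p = 0.343, smallest possible p 0.0286). The MRL difference was then -1.99 (exact permutation p = 0.457, adjusted p = 0.457), and that between uninjured strains turned from 1.33 to -0.99 percentage points (exact permutation p = 0.2, where 0.1 is the smallest possible).

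Cat, on chromosome 2 from 103453849 to 103485160 (minus strand), encodes the peroxisomal catalase. It had 126, 127 and 136 CPM in MRL uninjured replicates 1 to 3, and 77.3, 109 and 95.7 CPM in C57 uninjured replicates 1 to 3. The libraries labelled replicate 4 had 105 CPM in MRL and 87.8 CPM in C57. Catalase was thus higher in the MRL than in the C57 libraries once both replicate 4 were left out, with a log2 fold change of 0.46 (SE 0.14, adjusted p = 0.0990, edgeR), which did not pass by edgeR and passed on the adjusted p alone by DESeq2, and 0.41 with all libraries (SE 0.15, adjusted p = 0.621, edgeR). Injured MRL tendons had 61.4 to 114 CPM of Cat and injured C57 tendons 75.0 to 114 CPM, which overlapped. After injury the log2 fold change of Cat was 0.097 in C57 (0.078 without replicate 4) and -0.37 in MRL (SE 0.20, adjusted p = 0.254, edgeR), or -0.42 without replicate 4 (SE 0.22, adjusted p = 0.269, edgeR).

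Hmox1, on chromosome 8 from 75093621 to 75100589, encodes the inducible haem oxygenase. In MRL it had 16.7, 13.9, 28.8 and 16.6 CPM in uninjured replicates 1 to 4 and 41.0, 73.2, 76.5 and 44.3 CPM in injured tendons, so the groups did not overlap. Hmox1 rose in MRL with a log2 fold change of 1.63 (SE 0.29, adjusted p = 0.00707, edgeR), and of 1.59 without the library labelled MRL uninjured replicate 4 (SE 0.33, adjusted p = 0.0243, edgeR). With a further library left out the log2 fold change ran from 1.40 to 1.96, and Hmox1 passed in 4 of 7 fits, not when BI-272 or uninjured replicate 1 or 2 was that library (highest adjusted p = 0.111, edgeR). In 1 fit over all 16 libraries it was 1.62 with an adjusted p of 0.0835 (edgeR).

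In C57, Hmox1 had 20.1, 14.1 and 28.1 CPM in uninjured replicates 1 to 3, 86.9 CPM in replicate 4, and 52.9, 159.8, 40.6 and 50.3 CPM in injured tendons. Without replicate 4 every injured C57 library was above every uninjured one, and BI-183 stood far above the rest. The log2 fold change of Hmox1 in C57 was 1.01 with all libraries (SE 0.65, adjusted p = 0.497, edgeR) and 1.87 without replicate 4 (SE 0.52, adjusted p = 0.0803, edgeR), neither of which passed, and without replicate 4 and BI-183 it was 1.21 (adjusted p = 0.0629, edgeR). DESeq2 without replicate 4 gave 1.91 with an adjusted p of 0.00110. The changes in Hmox1 did not differ between the strains by test, with a difference of -0.34 on the log2 scale for 14 libraries (SE 0.63, adjusted p = 0.901, edgeR), and of 0.57 for 16 (SE 0.75, adjusted p = 0.819, edgeR). The summed level of 10 macrophage markers moved in the same direction, with 4803 to 8176 CPM in injured and 777 to 1690.1 CPM in uninjured C57 tendons. In MRL it was 3588 to 6347 CPM in injured and 969.95 to 1603 CPM in uninjured tendons. With all libraries 5 of the 10 were called higher in C57 and 5 in MRL (edgeR), against 1.07% and 7.41% of all genes called. Without replicate 4 these were 9 and 4, against 5.01% and 6.11%, and 0 were called lower in either set. The 7 red blood cell markers summed to 72.7 to 487 CPM in injured and 29.9 to 78.2 CPM in uninjured C57 tendons, and to 16.4 to 315 and 16.3 to 109.6 CPM in MRL. Their part in the Hmox1 values was not tested.

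Nqo1, on chromosome 8 from 107388225 to 107403206 (minus strand), encodes the quinone reductase. In C57 it had 49.1, 57.1 and 69.1 CPM in uninjured replicates 1 to 3, 17.9 CPM in replicate 4, and 33.3, 33.9, 31.5 and 40.7 CPM in injured tendons. Apart from replicate 4, the injured C57 libraries were all lower than the uninjured ones and close to each other. Without replicate 4 the log2 fold change was -0.75 (SE 0.18, adjusted p = 0.0413, edgeR), below the 2-fold size criterion, and with all libraries it was -0.48 (SE 0.36, adjusted p = 0.566, edgeR). With a further library left out, the adjusted p stayed under 0.05 in 1 of 7 fits, the fit without BI-185 (highest adjusted p = 0.219, edgeR).

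In MRL, Nqo1 had 71.8, 67.8, 71.8 and 63.4 CPM in uninjured and 35.7, 51.0, 88.5 and 130.4 CPM in injured tendons. The uninjured MRL libraries lay within 63.4 to 71.8 CPM, while the injured ones spread to both sides of that range. Between injured strains Nqo1 was higher in MRL by a log2 difference of 1.08 (standard error 0.35), which did not pass (adjusted p = 0.121, edgeR), and did so with DESeq2 (adjusted p = 0.0461) and without BI-270 (1.37, adjusted p = 0.0447, edgeR). Without BI-275 the difference was 0.75 (adjusted p = 0.205, edgeR).

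Txnrd1, on chromosome 10 from 82833951 to 82897712, encodes the cytosolic thioredoxin reductase, and its gene overlaps 3 others without sharing an exon. In MRL it had 56.2, 51.9, 69.1 and 50.9 CPM in uninjured and 95.7, 106.7, 97.3 and 114.5 CPM in injured tendons. The injured MRL libraries were narrowly spread and all above the uninjured ones. The log2 fold change of Txnrd1 in MRL was 0.87 (SE 0.15, adjusted p = 0.00653, edgeR), and 0.83 without MRL uninjured replicate 4 (SE 0.16, adjusted p = 0.0170, edgeR), both below the 2-fold size criterion. With a further library left out the adjusted p stayed under 0.05 in 5 of 7 fits (highest 0.0891, edgeR).

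In C57, Txnrd1 had 56.0, 65.2, 78.1 and 91.2 CPM in uninjured replicates 1 to 4 and 59.3, 65.6, 99.4 and 52.4 CPM in injured tendons, which overlapped, and its log2 fold change was -0.083 (SE 0.25, adjusted p = 0.917, edgeR), or 0.053 without replicate 4 (SE 0.24, adjusted p = 0.926, edgeR). The MRL change exceeded the C57 change of Txnrd1 by 0.90 (SE 0.29, adjusted p = 0.339, edgeR) for 16 libraries and by 0.72 (SE 0.30, adjusted p = 0.417, edgeR) for 14, so the changes were not shown to differ.

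**Figure D3:**
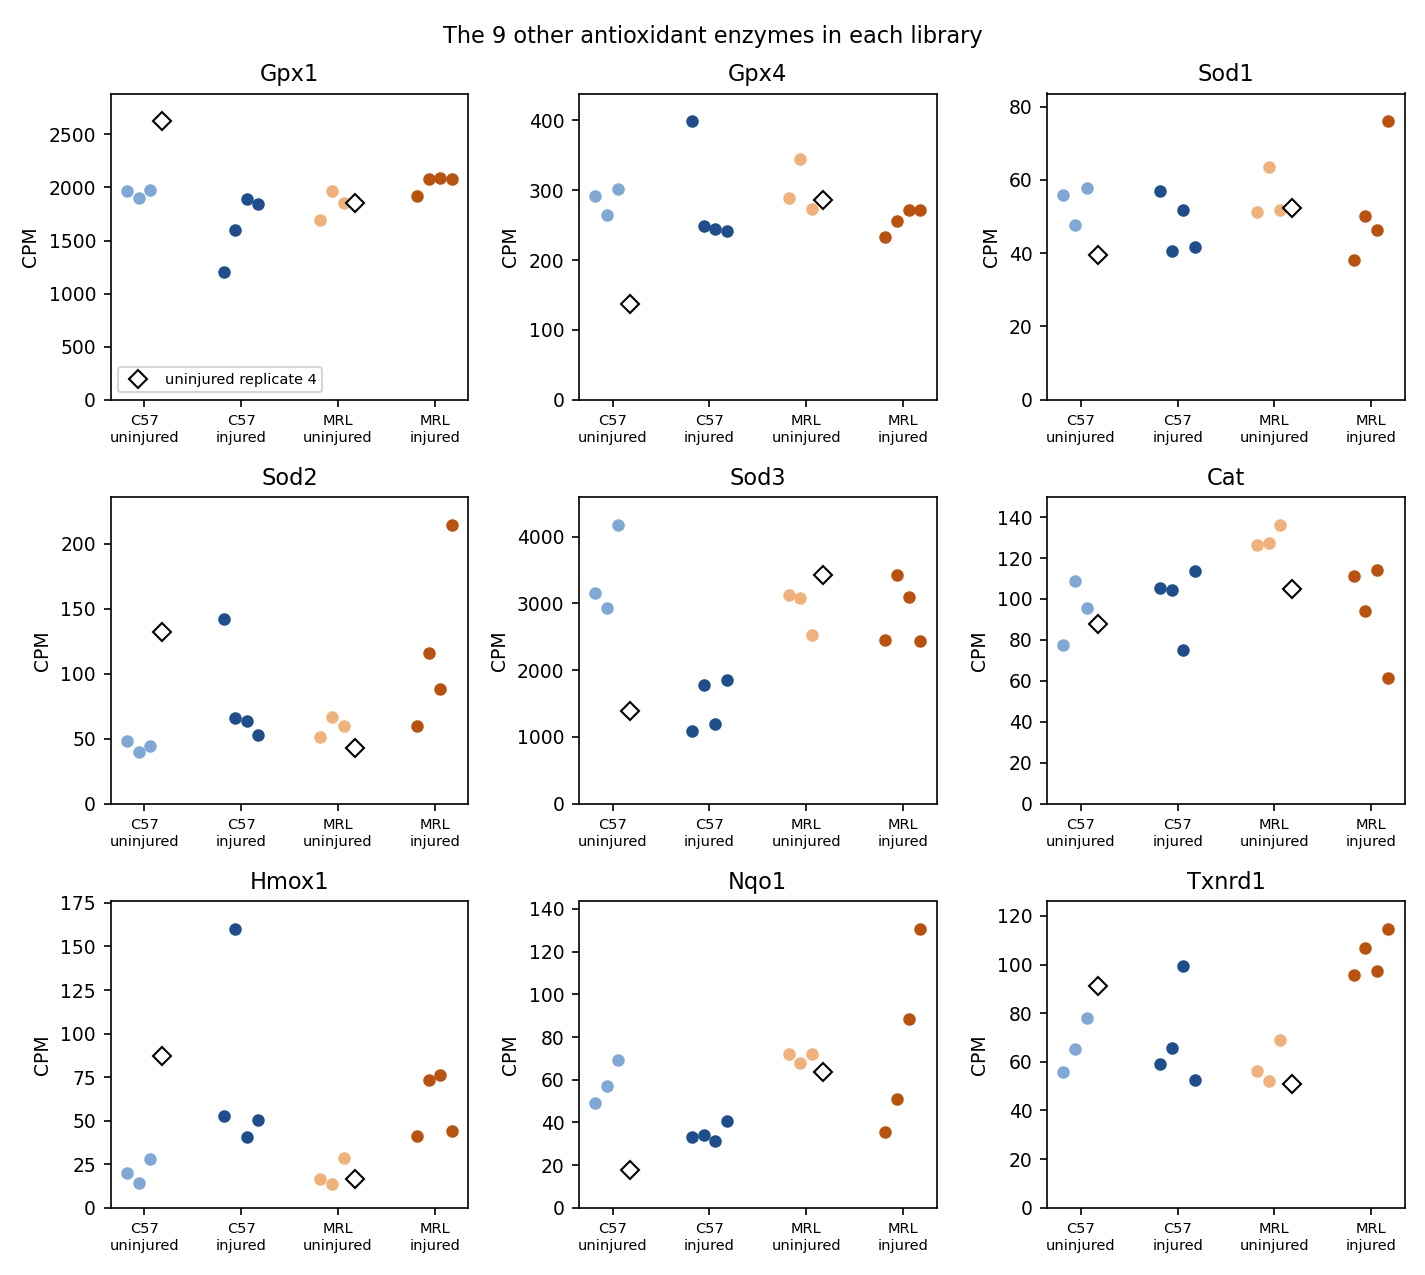
Level in CPM (linear axes from 0) of the 9 antioxidant enzymes other than Gpx3 in each of the 16 libraries, by labelled group with 4 libraries each. Open diamonds are the uninjured libraries labelled replicate 4; for Sod3 in C57, replicate 4 at 1389 CPM lies among the injured libraries (1092.5 to 1860.1 CPM), away from the other uninjured ones (2926 to 4168 CPM).

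Counted over the 9 tested members, injury moved few. A call required an adjusted p under 0.05 (edgeR's quasi-likelihood test, Benjamini-Hochberg over all genes tested) and a fold change over 2. In C57 with all 8 libraries 0 of 9 members were called, against 1.07% of all genes, and 1 member had an unadjusted p under 0.05, with 0 called by DESeq2. Without C57 uninjured replicate 4, 1 of 9 was called, Sod3, against 5.01% of all genes, and 2 of 9 passed on the adjusted p alone, Sod3 and Nqo1, against 6.26%. Both were lower after injury. DESeq2 without that library called 2 of 9, beside 1467 of 17112 genes, and 3 passed on the adjusted p alone, beside 1941 genes. In MRL 1 of 9 was called, Hmox1, against 7.41% of all genes with 8 libraries and 6.11% without MRL uninjured replicate 4, and 2 of 9 passed on the adjusted p alone, Hmox1 and Txnrd1, against 11.1% and 8.12%. Both were higher after injury. DESeq2 with 8 MRL libraries called 2 of 9, beside 1818 of 16522 genes, and 3 passed on the adjusted p alone, beside 2951 genes. Without MRL uninjured replicate 4 DESeq2 called 1 of 9, beside 1750 of 15796 genes. So few calls among 9 members do not stand apart from these shares. The median log2 fold change of the 9 members was -0.08 in C57 and 0.16 in MRL with 8 libraries each, beside -0.048 and -0.034 over all genes tested. Without replicate 4 it was -0.017 and 0.13, beside -0.0064 and -0.0085.

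Between uninjured strains 0 of 9 members were called with 8 libraries, against 0% of all genes by edgeR, where 1106 genes had an unadjusted p under 0.05 and DESeq2 called 101. Without both replicate 4 libraries, 0 of 9 were called against 3.48% of all genes, and 2 members, Cat and Sod2, had an unadjusted p under 0.05. DESeq2 called 0 of the 9 in either set of libraries. Between injured strains 0 of 9 were called by edgeR against 3.43% of all genes, with Sod3, Nqo1 and Txnrd1 at an unadjusted p under 0.05 and 1 member, Nqo1, called by DESeq2. Sod3 was higher in injured MRL than in injured C57 tendon by 0.89 on the log2 scale (SE 0.25, adjusted p = 0.0749, edgeR), and passed on the adjusted p alone by DESeq2 (0.90, adjusted p = 0.00470). The 10 tendon fibroblast markers had a median log2 difference of 0.90 in the same comparison, with 1 called higher and 0 lower, and their part in the Sod3 value was not tested. For the strain-by-injury term 0 of 9 members passed, against 0% of all genes with 16 libraries and 0% with 14, where 1939 and 1735 genes had an unadjusted p under 0.05 and DESeq2 called 212 and 295. Sod3 and Txnrd1 were the 2 members with an unadjusted p under 0.05 in both. For Gpx3 itself these shares are the background of the contrasts that chose it, and nothing is read from them.

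**Figure D4:**
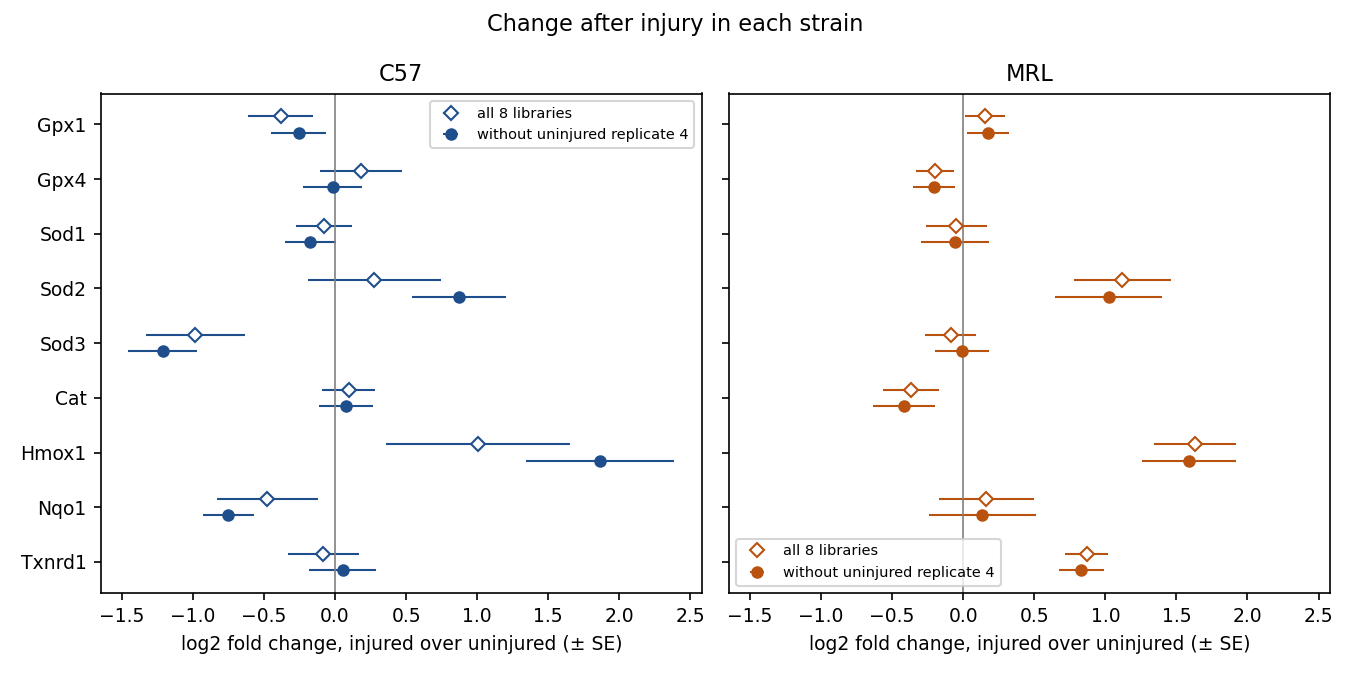
Log2 fold change of injured over uninjured tendon (± standard error from edgeR's quasi-likelihood fit) for the 9 tested enzymes in C57 (left) and MRL (right), with all 8 libraries (open diamonds) and without the uninjured library labelled replicate 4 (filled circles). Sod3 lies at -0.98 and -1.21 in C57 and near 0 in MRL, and Hmox1 at 1.63 and 1.59 in MRL.

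Levels per length, in CPM per kilobase of annotated exon (RPKM), place the members in an order that depends on the length used. That length joins all annotated exons of a gene, such as 3970 bases for Sod1 and 10008 for Sod2. It can exceed the length of the transcript present, which lowers the RPKM, and the order was not tested with other lengths. In uninjured C57 tendon without replicate 4, Gpx3 was the highest with 2405 ± 851 RPKM (SD, n = 3), followed by Gpx1 with 1350.5 ± 28.0, Sod3 with 914 ± 177 and Gpx4 with 166 ± 11.2. These 4 did not overlap. Nqo1 and Cat, with 37.6 ± 6.50 and 36.0 ± 6.09 RPKM, overlapped each other. Hmox1, with 11.9 ± 4.01 RPKM, overlapped Sod1 above it (13.5 ± 1.34) and Txnrd1 below it (9.38 ± 1.57), which did not overlap each other, and Sod2 was lowest with 4.42 ± 0.422 RPKM. In uninjured MRL tendon without replicate 4, Gpx1 came first with 1274 ± 94.0 RPKM and Sod3 second with 779 ± 91.1, and Gpx3, with 49.4 ± 6.93 RPKM, had rank 5, overlapping Cat above it and Nqo1 below. With all 4 uninjured libraries the mean of Gpx3 was 1814 ± 1371 RPKM in C57, still first though overlapping Gpx1 (1468 ± 236), and 753 ± 1408 RPKM in MRL, which moved it to rank 3 behind Gpx1 (1278 ± 77.1) and Sod3 (813 ± 101). In injured C57 tendon Gpx1 and Gpx3 overlapped at the top, with 1135 ± 217 and 797 ± 255 RPKM (SD, n = 4). In injured MRL tendon Gpx3 had rank 4 with 110.1 ± 33.3 RPKM (SD, n = 4). Sod2, with the longest joined exons, had the lowest mean RPKM in all 4 groups, though it overlapped Txnrd1 in injured C57 and Sod1 in injured MRL tendon.

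Other genes of the redox pathways were read from lists chosen by function, tested over all genes in the same fits. Their counts after injury stand against the shares of all genes called in either direction, which were 5.01% in C57 and 6.11% in MRL without replicate 4, and 1.07% and 7.41% with all libraries. Between injured strains the share was 3.43%. Between uninjured strains it was 3.48% without both replicate 4 and 0% with all 8 libraries. Of 9 tested sources of superoxide and peroxide (12 listed), 6 rose in C57 without replicate 4 and 0 fell, and 4 rose and 0 fell in MRL without replicate 4, with list medians of 1.41 and 1.62 beside -0.01 and -0.01 over all genes. They are chiefly subunits of the phagocyte NADPH oxidase. Cybb, its catalytic subunit, rose by a log2 fold change of 1.98 in C57 (SE 0.38, adjusted p = 0.0189, edgeR) and 1.62 in MRL (SE 0.34, adjusted p = 0.0250, edgeR). Ncf1, Ncf4 and Rac2 were called in both strains as well, with log2 fold changes between 1.41 and 1.70 in C57 and between 2.42 and 2.57 in MRL. Xanthine dehydrogenase (Xdh), with a log2 fold change of 1.79, was called in C57 (SE 0.28, adjusted p = 0.00918, edgeR). With all libraries, 2 rose in C57, Xdh among them and Cybb not, and 5 in MRL, with list medians of 1.72 and 1.73. In injured tendon Xdh was lower in MRL than in C57, with a log2 difference of -1.87 (SE 0.41, adjusted p = 0.0341, edgeR). In the same comparison 2 of 8 endothelial markers were lower in MRL and 0 higher (median -3.02), with a summed level of 113 to 211 CPM in injured C57 and 0.906 to 27.5 CPM in injured MRL tendons, where up to 6 of the 8 were at 0 in a library. Of the 10 macrophage markers 4 were lower in MRL and 0 higher (median -0.97), and the part of both marker lists in the Xdh value was not tested. Between uninjured strains without both replicate 4, Ncf1 was lower in MRL, with a log2 difference of -1.62 (SE 0.38, adjusted p = 0.0384, edgeR), and with all 8 libraries 0 of the 9 were called. The summed level of the macrophage markers, given beside Hmox1, moved in the same direction as the oxidase subunits, and the part of these markers was not tested.

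Of 19 tested thioredoxin and peroxiredoxin genes, 2 rose and 0 fell in MRL without replicate 4, and 0 were called in C57 with or without replicate 4. The 2 were Prdx1, a cytosolic peroxiredoxin, with a log2 fold change of 1.38 (SE 0.32, adjusted p = 0.0345, edgeR), and Prdx5, with 1.48 (SE 0.29, adjusted p = 0.0211, edgeR). With all 8 MRL libraries, Txnip, the thioredoxin inhibitor, also fell, with a log2 fold change of -1.34 (SE 0.34, adjusted p = 0.0332, edgeR). The list medians were 0.49 in MRL and 0.17 in C57 without replicate 4, and 0.46 and 0.017 with all libraries. In the strain-by-injury term 0 of 19 passed with 16 or 14 libraries (edgeR). As 0% of all genes passed it in either set, this count cannot show whether the changes differed between the strains.

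Of the 2 other glutathione peroxidases tested (5 listed), Gpx7, of the endoplasmic reticulum, rose in MRL by 1.40 without replicate 4 (SE 0.20, adjusted p = 0.00685, edgeR) and 1.51 with it. Gpx8 was higher in injured MRL than in injured C57 tendon by 1.28 (SE 0.26, adjusted p = 0.0276, edgeR), as was Mthfd2, from the list of NADPH supply, by 1.45 (SE 0.31, adjusted p = 0.0311, edgeR). The tendon fibroblast markers had a median difference of 0.90 there, with 1 called higher and 0 lower. The part of the marker lists in the values of Gpx8, Mthfd2 and, below, Glrx was not tested. Of 9 genes listed under NADPH supply, Mthfd2 and Pgd rose in MRL without replicate 4 by 1.15 and 1.01 (adjusted p = 0.0212 and 0.0132, edgeR), with all 8 libraries Mthfd2 alone was called (1.41, adjusted p = 0.0308, edgeR), and 0 were called in C57 in either set. Of 11 copper and selenium supply genes, the selenoprotein P receptor Lrp8 and the copper chaperone Atox1 rose in MRL by 3.02 and 1.28 (adjusted p = 0.0166 and 0.0322, edgeR), and Selenop itself rose in C57 by 1.34 (adjusted p = 0.0225, edgeR), each without replicate 4. With all libraries Lrp8 and Atox1 were called in MRL, and 0 of the 11 were called in C57. By the strain-by-injury term 0 of the 9 NADPH supply and 0 of the 11 copper and selenium genes passed with 16 or 14 libraries (edgeR). No gene of the other lists passed either. As 0% of all genes passed this term in either set, these counts cannot show whether the strains differed in these changes.

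Of 20 tested glutathione S-transferases, Gstm2 rose in C57 by 2.61 and Gstm1 fell, with a log2 fold change of -1.09, both without replicate 4 (adjusted p = 0.0226 and 0.0428, edgeR), and 0 of 19 were called in C57 with all libraries. Gstm1 was lower after injury in MRL with all 8 libraries, with a log2 fold change of -1.55 (adjusted p = 0.0277, edgeR), and 0 were called in MRL without replicate 4. Gsta3 was lower in injured MRL than in injured C57 tendon, with a log2 difference of -4.39 (SE 1.03, adjusted p = 0.0458, edgeR). In that comparison the Schwann cell, endothelial and adipocyte markers had medians of -3.96, -3.02 and -1.31. Medians were positive for tendon fibroblast, epidermal and neutrophil markers. The part of these markers in the Gsta3 value was not tested. Between uninjured strains Gstm2 was higher in MRL by 1.97 without both replicate 4 (SE 0.46, adjusted p = 0.0353, edgeR), and 0 of 19 were called with all 8 libraries. Members of this family are similar enough to share reads, so their counts are uncertain. Of 10 NRF2 regulators, Maff had a log2 fold change of -1.08 in C57 without replicate 4 and Mafk one of -1.06 in MRL with all libraries (adjusted p = 0.01998 and 0.00749, edgeR), and each call was absent in the other set of libraries of that strain. Nfe2l2 and Keap1 were not called in any comparison. Of 13 genes of glutathione synthesis and recycling 0 were called after injury in either strain (edgeR), and 1, Glrx, was higher in injured MRL than in injured C57 tendon by 1.37 (adjusted p = 0.0319, edgeR). Of 10 tested haem and iron genes, the haemoglobin scavenger receptor Cd163, a macrophage gene, rose in C57 without replicate 4 by 2.08 (adjusted p = 0.0350, edgeR), and 0 of 10 were called there with all libraries. Apart from the superoxide and peroxide sources, each list had at most 2 genes called in one direction after injury.

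**Figure D5:**
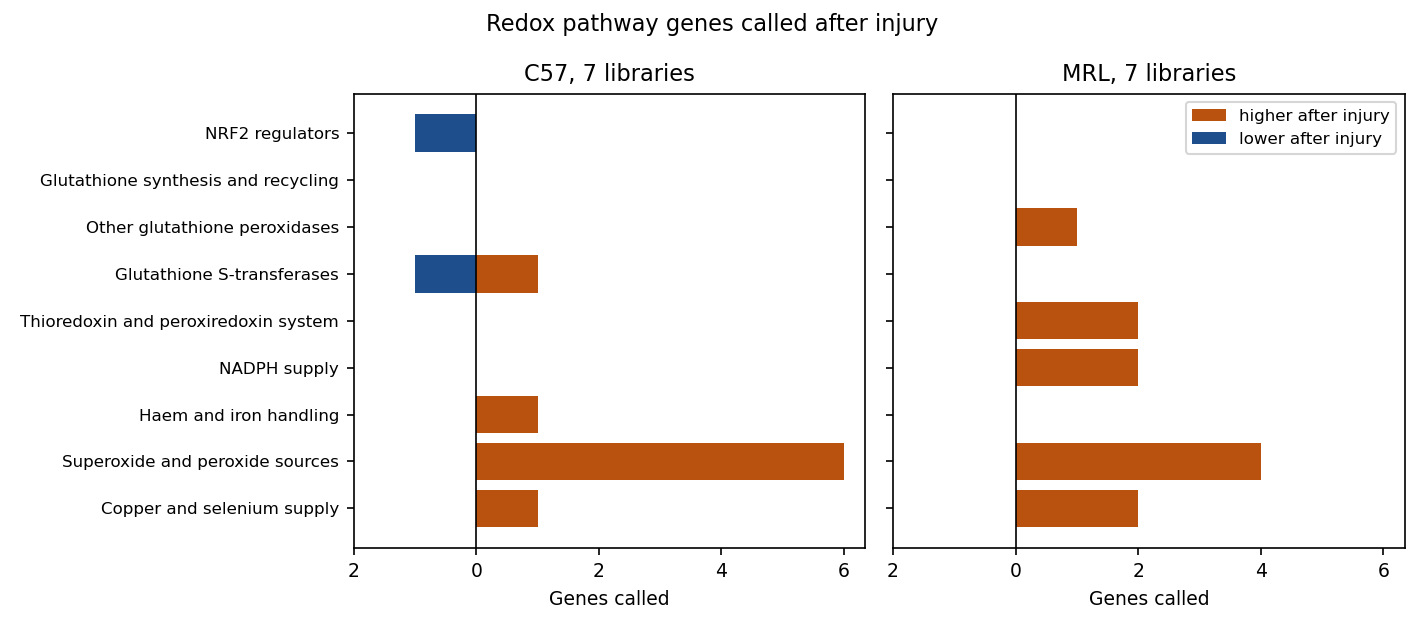
Number of genes called higher (right of 0) or lower (left of 0) after injury in 9 redox gene lists, in C57 (left) and MRL (right), each without the uninjured library labelled replicate 4. Superoxide and peroxide sources have the most calls, 6 in C57 and 4 in MRL.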

How the data were processed

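Tendons were sequenced one per library. The submitters' processing notes name Trimmomatic 0.36, STAR 2.5.2b, Subread 1.5.0p3, featureCounts, DESeq2 1.14.1 and GRCm38.p5; the annotation and strand setting are not given in the sources used here. The methods describe low-input pre-amplification and the labels a TruSeq kit, and which was used was not resolved. The authors deposited whole-number counts of reads per gene symbol, without normalization, and every sample column was matched to a sample (0 unmatched).

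From these counts, edgeR 4.0.16 (R 4.3.3) was run with TMM factors, its expression filter and robust quasi-likelihood tests. Genes were called at a Benjamini-Hochberg adjusted p under 0.05 with a fold change of more than 1 on the log2 scale, in either direction, and the strain-by-injury term on the adjusted p alone. Each comparison used its own groups, and the strain-by-injury term used all 16 libraries. DESeq2 1.42.0, other scaling, other filters, a fit of all libraries and fits with libraries left out were the alternatives. The test code was tested on simulated data. Coordinates and exon lengths are from GENCODE M21 of GRCm38, and sequences from RefSeq on GRCm38.p6.

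The members and lists were chosen with earlier results of these data known. The genes named are the 10 members, the 5 most like Gpx3 and at most 6 called genes per list within a strain; the neighbours of Gpx3, and list genes called between strains, were named after their values were seen. The values of 1 list gene are not reported here. The total count per sample, 12552424 to 23741648, limits precision, and the floor of 3 counts covers counting error only. The methods give 4 animals per group and single tendons per RNA sample, and the labels name no animal.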

Additional observations from a re-analysis of the deposited data

Results flagged for a closer look

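In 7 of the 36 sets of 4 libraries (the 9 tested enzymes in 4 groups), 1 library stood apart from the other 3 by Dixon's ratio, the gap to the nearest library divided by the whole range, above its critical value for 4 libraries. Chance flags about 5% of such groups. The library labelled C57 uninjured replicate 4 made up 2 of the 7. In the library labelled C57 uninjured replicate 4, Gpx1 had 2623 CPM against 1899.8 to 1974 in the others (ratio 0.897) and Sod2 had 133 CPM against 40.0 to 48.5 (ratio 0.909).

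In injured C57 tendons, BI-181 stood apart for Gpx4, with 399 CPM against 241 to 249 (ratio 0.952), and for Sod2, with 142 CPM against 52.9 to 65.7 (ratio 0.856). BI-183 stood apart for Hmox1, with 159.8 CPM against 40.6 to 52.9 (ratio 0.897). In injured MRL tendons, BI-270 was low for Gpx1, with 1920.0 CPM against 2075 to 2085 (ratio 0.936). MRL uninjured replicate 2 was high for Sod1, with 63.4 CPM against 51.3 to 52.4 (ratio 0.914).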

How the results depend on the processing

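Of 885 member fold changes under the alternatives, 819 kept their direction and their side of the threshold, 47 reversed, 11 gained and 4 lost the call, and 4 of Gpx3 moved. The causes were not tested. The number of members called after injury in C57, 0 with all libraries, was 1 without replicate 4 (0 to 1 over single libraries left out), 2 by DESeq2 without it, and 1 when BI-181, BI-183 or BI-185 was left out as well. In MRL the number, 1, was 2 by DESeq2, 1 to 2 over single libraries left out (2 without BI-270), 0 with all 16 libraries in 1 fit, and 0 without replicate 4 and BI-272, uninjured replicate 1 or uninjured replicate 2. Between injured strains it was 1 by DESeq2 and 0 to 1 over single libraries left out (1 without BI-270). The strain-by-injury count was 1, Sod3, by DESeq2 without both replicate 4. Several of these alternatives were chosen after seeing the data.

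Reversed log2 fold changes were as follows. Total-count scaling gave 0.043 for Sod1 and 0.071 for Txnrd1 in C57, where it moved the median of all genes from -0.048 to 0.082, and -0.045 for Sod1 between injured strains, where the median moved from -0.064 to -0.20. Relative to these medians Sod1 and Txnrd1 in C57 stayed on the lower side and Sod1 between injured strains on the higher. DESeq2 without replicate 4 gave 0.10 for Txnrd1 in C57, 1.16 for Gpx3 in MRL, 0.42 for Sod2 and -0.23 for Sod3 between uninjured strains, and for strain by injury 2.71 for Gpx3, 0.060 for Sod1 and -0.34 for Hmox1. Without both replicate 4 and BI-181 the last 3 were 2.60, 0.14 and -0.49, and without both replicate 4 they were 2.71, 0.063 and -0.34.

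Over single libraries, or both replicate 4, left out, the C57 change ran from -0.017 to 0.28 for Gpx4, -0.17 to 0.017 for Sod1, -0.11 to 0.87 for Sod2 and -0.28 to 0.053 for Txnrd1. The MRL change ran from -3.19 to 1.18 for Gpx3, -0.28 to 0.051 for Sod1 and -0.23 to 0.37 for Nqo1. Between uninjured strains Sod2 ran from -0.46 to 0.42 and Sod3 from -0.24 to 0.28. Between injured strains Gpx4 ran from -0.25 to 0.023, Sod1 from -0.093 to 0.27, Cat from -0.23 to 0.10 and Hmox1 from -0.63 to 0.24. For strain by injury Gpx3 ran from -2.13 to 2.71, Sod1 from -0.25 to 0.10 and Hmox1 from -0.34 to 1.23.

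Of all genes, 155 were called in C57 (909 by DESeq2, 750 without replicate 4, 10 to 92 without any other single library, lowest without uninjured replicate 3), 1057 in MRL (1818 by DESeq2, 689 to 1260 over single libraries left out, lowest without uninjured replicate 1), 502 between injured strains (1488 by DESeq2, 227 with all 16 libraries in 1 fit, 231 without BI-185, 255 without BI-272, 286 without BI-183 and up to 481 without any other single library) and 0 between uninjured strains (101 by DESeq2, 497 without both replicate 4). Correlations of same-numbered deviations from the group means ran from -0.26 to 0.016 in the uninjured groups. Those means include both libraries labelled replicate 4, so these values cannot show whether the replicate numbers pair the libraries. With the replicate block between uninjured strains 0 members and 0 genes were called by edgeR (812 at an unadjusted p under 0.05), and Gpx3 had a log2 fold change of -4.55.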

Other observations

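Pearson's correlations of log2 CPM between members were, over the 14 libraries without both replicate 4 and over all 16, 0.67 and 0.31 for Gpx1 with Sod3, 0.63 and 0.69 for Sod3 with Nqo1, and -0.54 and -0.71 for Gpx1 with Gpx4. The first and second were the highest over 14 and over 16 libraries respectively, and the last the lowest in both. They are a description over libraries that share strain and injury groups.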
